A study of Mus musculus with 12 samples.

Results

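The enzymes described here are the glycosyltransferases and carbohydrate sulfotransferases whose annotated symbol starts with Galnt, Gcnt, B3gnt, B4galt, B3galt, Fut, St3gal, St6gal, St6galnac, St8sia or Chst followed by a number. The rule used the symbol alone, and it found 108 probes of 74 genes, 0.446% of the 16593 genes with a symbol on the array. They were measured in whole oviducts of ICR mice aged 6 weeks at proestrus, estrus, metestrus and diestrus. Each of the 4 stages had 3 Illumina bead arrays hybridised with biotin-labelled cRNA from total RNA. The labels list no transgene, treatment or deletion for any group, and they do not say how the stages were determined, whether a replicate was 1 animal or a pool, or whether replicates were separate animals. The p-values therefore measure the spread between arrays, which may be technical. In RNA of a whole organ, fewer cells of a type and less RNA per cell cannot be told apart.

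Glycans are built stepwise in the Golgi, where each transferase adds 1 sugar from an activated donor to a protein, a lipid or a growing chain. In mucins the Galnt enzymes start the chain by adding N-acetylgalactosamine to serine or threonine, Gcnt enzymes branch it, B3gnt and B4galt enzymes lengthen it in alternation, and Fut and sialyltransferase enzymes cap its ends. The Chst enzymes transfer sulfate rather than a sugar, so they are sulfotransferases. Several members act mainly on glycolipids, membrane proteins or proteoglycans, so the set as a whole is not particular to secreted glycans. The oviduct lining secretes a fluid rich in glycoproteins, of which oviductin, encoded by Ovgp1, is the best known, and sperm, eggs and embryos are in contact with it.

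The arrays fell into 2 sets by brightness. The median raw intensity was 139 to 156 on the replicate 1 arrays of the 4 stages and 99.3 to 105 on the replicate 2 and 3 arrays. The share of probes detected ran from 48.6% to 58.1%, and of the tested enzymes 49 or 50 were detected on each replicate 1 array and 43 to 48 on each other array. All 7 measured markers of oviduct secretory cells and all 6 of ciliated cells were detected on at least 3 arrays, and 0 of the 13 changed across the cycle in limma's moderated F test with Benjamini-Hochberg adjustment over all genes, with 1 of the secretory and 0 of the ciliated markers at an unadjusted p under 0.05. With the replicate number as a block 1 secretory marker was called, Sox17 (limma adjusted p = 0.01, against 0.14 without the block), with stage means of 10.83, 10.90, 11.41 and 11.57 from proestrus to diestrus. Markers of ovarian cell types and oocytes were also present and moved with the stage, and the labels do not say whether such cells lay inside or beside the oviduct. The summed level of 8 granulosa, theca and luteal cell markers was 1023 to 1284 at proestrus, 2684 to 3080 at estrus, 375 to 547 at metestrus and 488 to 592 at diestrus, in background-corrected linear intensity units, and none of the 8 was undetected throughout. The summed level of 8 oocyte markers was 328 to 544, 1714 to 2225, 363 to 603 and 647 to 997 at these stages, and the egg coat genes Zp1 and Zp2 were not detected on any array.

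Of the 74 genes, 50 (67.6%) were detected, meaning a detection p under 0.01 on at least 3 of the 12 arrays for at least 1 probe. The same share over all genes on the array was 61.1%, 10144 of 16593. On all 12 arrays 42 of the enzymes were detected, and on any array 54. Another 4, B4galt2, B4galt5, Chst5 and Fut7, were detected on 1 or 2 arrays. The remaining 20 were not detected on any array: B3galt1, B3galt2, B3gnt2, B3gnt6, Chst9, Fut1, Fut9, Galnt4, Galnt6, Galnt7, Galnt9, Galnt13, Gcnt7, St6gal2, St6galnac1, St6galnac3, St8sia1, St8sia3, St8sia5 and St8sia6. A probe at background says only that no signal stood above it on these arrays. By family, 8 of 13 Galnt, 2 of 3 Gcnt, 4 of 6 B3gnt, 4 of 6 B4galt, 3 of 5 B3galt, 5 of 8 Fut, 6 of 6 St3gal, 1 of 2 St6gal, 4 of 6 St6galnac, 2 of 6 St8sia and 11 of 13 Chst genes were detected and tested. Since a probe had to be detected on 3 arrays to be tested, a gene bright at 1 stage alone could enter, but only Chst4 lacked a detected probe on every array of a stage (proestrus), and it did not pass the F test.

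Of the set, 6 enzymes changed across the cycle. Chst8, B3gnt7 and B3gnt8 were high at proestrus and low at metestrus and diestrus, B3gnt5 peaked at metestrus, and St6gal1 and Chst7 were lowest at proestrus. These 6 of 50 tested genes passed limma's moderated F test at an adjusted p under 0.05, where 5.37% of all 10144 genes tested did. Same-numbered arrays of different stages deviated together, and with the replicate number as a block the count was 12 of 50 against 16.4% of all genes. With the brightness set as the block it was 12 of 50 against 18.6%. In the replicate 2 and 3 arrays alone it was 8 of 50 against 10.7%. On the authors' deposited normalised values, in which the brightness sets were not adjusted for in the fit, Chst8 alone passed, and with the replicate block 12 of the enzymes passed there too.

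**Figure D1:**
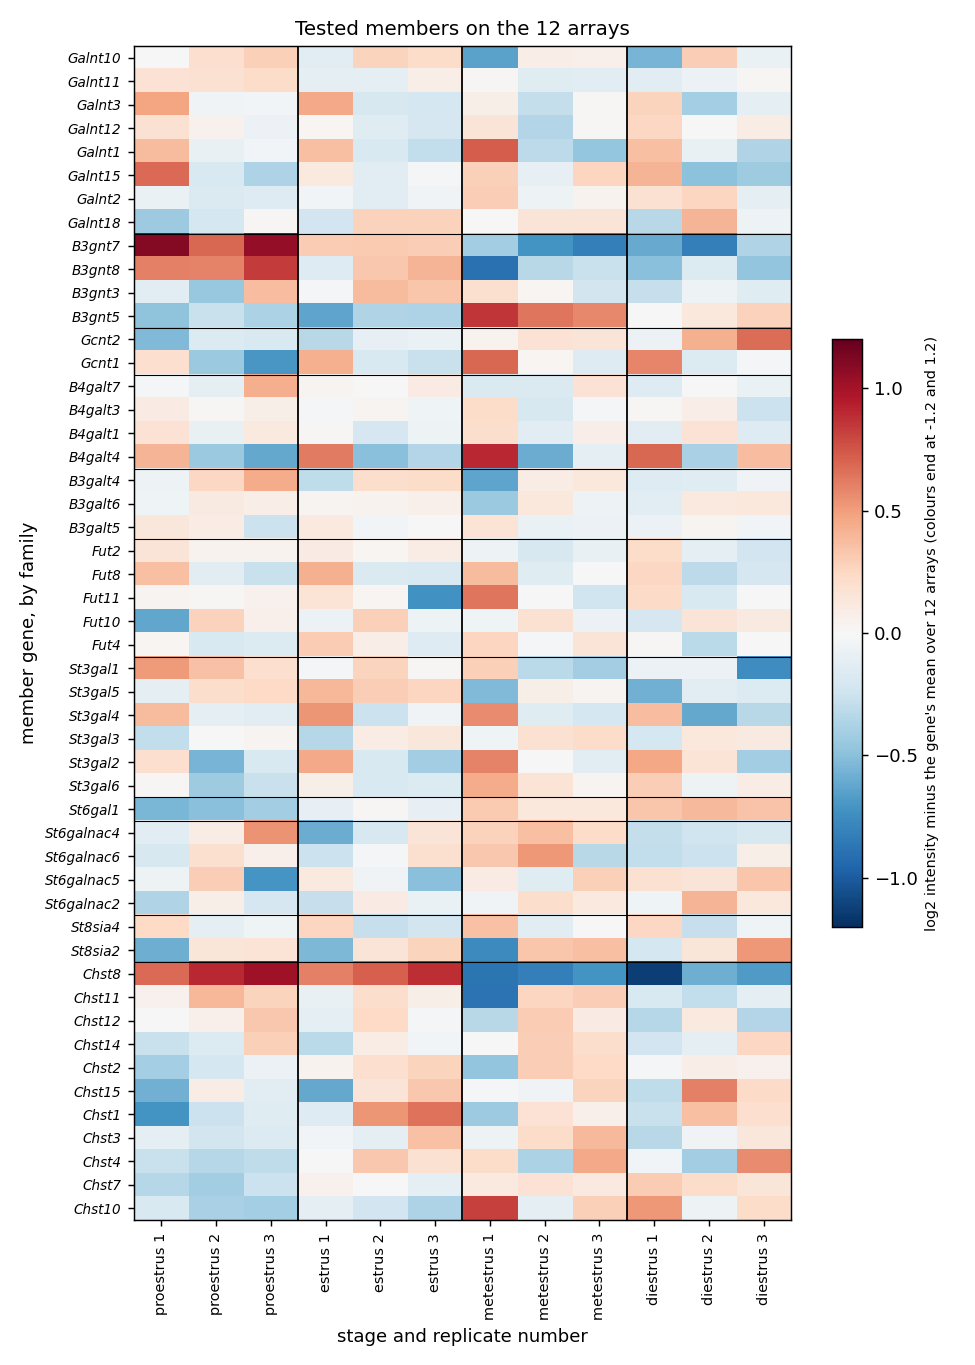
Log2 intensity of each of the 50 tested enzymes on each of the 12 arrays, minus that gene's mean over the 12 arrays, with genes grouped by family and arrays by stage and replicate number. The rows of Chst8, B3gnt7 and B3gnt8 are above their means on the proestrus arrays and below them at metestrus and diestrus, and the row of B3gnt5 is highest at metestrus.

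Most of the set moved little. The distance between the highest and lowest stage mean had a median of 0.33 on the log2 scale over the 50 genes, against 0.30 over all genes tested, and it was under 0.5 in 38 of them. It exceeded 1 in 4 genes, B3gnt7, B3gnt8, B3gnt5 and Chst8. The stage with the highest mean was proestrus in 15 genes, estrus in 10, metestrus in 15 and diestrus in 10. The median difference between metestrus and proestrus was 0.10 for the set and 0.02 for all genes.

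The initiating enzymes did not pass the test. None of the 8 tested Galnt genes was called by the F test, and none had an unadjusted p under 0.05. Their stage means spanned 0.13 to 0.33 on the log2 scale. The lowest F p of the family belonged to Galnt11, which adds the first N-acetylgalactosamine to protein chains. Its log2 intensities were 10.98, 10.99 and 11.02 at proestrus, 10.69, 10.70 and 10.88 at estrus, 10.82, 10.66 and 10.67 at metestrus, and 10.68, 10.73 and 10.82 at diestrus, in the order of replicates 1, 2 and 3. The 3 proestrus arrays lay above the other 9, yet metestrus minus proestrus was -0.28 ± 0.11 (log2 difference ± SE, limma adjusted p = 0.19) and the F test gave an adjusted p of 0.43. Outside the symbol rule, a list of 6 tested genes held the O-glycan core galactosyltransferase gene C1galt1 and the gene of its chaperone, C1galt1c1. The others, B3galnt1, B3galnt2, B4galnt2 and B4galnt4, encode N-acetylgalactosaminyltransferases that do not build this core. Of the 6 genes, 0 were called by the F test and 0 had an unadjusted p under 0.05. With the replicate block 1 was called by the F test, B4galnt2 (adjusted p 0.04), which was named after its values were seen.

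The branching enzymes Gcnt1 and Gcnt2 did not pass the F test over the 12 arrays without a block, and both passed with the replicate number or the brightness set as a block. Gcnt2 forms the branches of poly-N-acetyllactosamine that carry the I blood group antigen. On its brightest probe the values were 11.51, 11.88 and 11.86 at proestrus, 11.71, 11.95 and 11.96 at estrus, 12.09, 12.22 and 12.20 at metestrus, and 11.97, 12.47 and 12.71 at diestrus. The diestrus arrays lay above the proestrus arrays, and the replicate 1 array was the lowest of each stage. Proestrus minus diestrus was -0.63 ± 0.18 (limma adjusted p = 0.076), and with the block the adjusted p was 0.0048. The adjusted p of the F test was 0.18 without the block, 0.011 with it and 0.015 in the replicate 2 and 3 arrays, and it also passed without diestrus replicate 1. With the block estrus against diestrus (-0.51, adjusted p = 0.024) and metestrus against proestrus (0.42, adjusted p = 0.031) passed as well. Of its 2 other kept probes, detected on 7 and 3 arrays, the first was brighter at diestrus than at proestrus in every replicate and the other was not in replicate 3.

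Gcnt1, which branches the O-glycan core of mucins, was named after its values were seen. Its values were 10.88, 10.23 and 9.98 at proestrus, 11.10, 10.49 and 10.41 at estrus, 11.36, 10.70 and 10.52 at metestrus, and 11.26, 10.51 and 10.65 at diestrus. Replicate 1 was the brightest array of every stage, so the stages overlapped, while metestrus exceeded proestrus by 0.48, 0.47 and 0.54 within replicates 1, 2 and 3. The limma adjusted p of that difference was 0.45 without the block and 0.0065 with it, and the F test gave 0.86 and 0.017. In the replicate 2 and 3 arrays alone the F test gave 0.084. On a second Gcnt1 probe, detected on all 12 arrays, metestrus minus proestrus was 0.87 ± 0.31 without the block (limma adjusted p = 0.16).

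Chain extension held 3 of the 6 changes, and they ran in opposite directions within 1 family. Of the 4 tested B3gnt genes, which add N-acetylglucosamine to a terminal galactose, 3 passed the F test. B3gnt7 extends keratan sulfate chains. Its log2 intensities were 7.99, 7.58 and 7.94 at proestrus, 7.19, 7.20 and 7.18 at estrus, 6.47, 6.17 and 6.07 at metestrus, and 6.28, 6.07 and 6.53 at diestrus. The proestrus arrays were the highest, the estrus arrays came next, and the metestrus and diestrus arrays overlapped below both. Metestrus was 3.04-fold lower than proestrus (log2 difference -1.60 ± 0.16 SE, 3 arrays a stage, limma adjusted p = 0.00017) and 1.94-fold lower than estrus (-0.96, adjusted p = 0.0068). Proestrus was 2.92-fold above diestrus (limma adjusted p = 0.00022) and estrus 1.87-fold above diestrus (limma adjusted p = 0.012). Within replicates 1, 2 and 3 metestrus minus proestrus was -1.53, -1.41 and -1.87. The step from proestrus to estrus, -0.64 ± 0.16, had a limma adjusted p of 0.12, and 0.025 with the replicate block.

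B3gnt8, which extends poly-N-acetyllactosamine on branched N-glycans, followed a like order. Its values were 10.87, 10.86 and 11.10 at proestrus, 10.11, 10.58 and 10.67 at estrus, 9.37, 9.93 and 9.99 at metestrus, and 9.76, 10.10 and 9.79 at diestrus. Every proestrus array lay above every other array, and the lowest estrus array lay just above the highest diestrus array. Metestrus was 2.27-fold lower than proestrus (-1.19 ± 0.20, limma adjusted p = 0.0047), and proestrus was 2.09-fold above diestrus (limma adjusted p = 0.0094). A second probe gave 8.59, 9.0 and 8.93 at proestrus and 7.16, 7.65 and 7.55 at metestrus, with a difference of -1.39 ± 0.17. Metestrus minus estrus was -0.69 with a limma adjusted p of 0.11, and 0.010 with the replicate block. Estrus minus diestrus was 0.57, with a limma adjusted p of 0.25, and 0.030 with the block.

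B3gnt5 makes lactotriaosylceramide, the starting point of the lacto-series and neolacto-series glycolipids, and it moved the other way. Its values were 5.96, 6.17 and 6.06 at proestrus, 5.81, 6.08 and 6.07 at estrus, 7.30, 7.08 and 7.02 at metestrus, and 6.45, 6.57 and 6.72 at diestrus. The metestrus arrays were the highest, the diestrus arrays lay between, and the proestrus and estrus arrays overlapped at the bottom. Metestrus was 2.21-fold above estrus (1.15 ± 0.13, limma adjusted p = 0.00052) and 2.10-fold above proestrus (1.07, limma adjusted p = 0.00069). Diestrus was 1.51-fold above estrus (limma adjusted p = 0.043) and 1.43-fold above proestrus (limma adjusted p = 0.049). Both diestrus calls were lost at an offset of 50, at a detection threshold of 0.05, when each probe was tested by itself (adjusted p 0.056 and 0.06) and on leaving out most single arrays. Of the 12 fits that each left out 1 array, the first call held only in the one without metestrus replicate 1, and the second only in those without estrus replicate 1 or metestrus replicate 1. Within replicates 1, 2 and 3 metestrus minus estrus was 1.49, 1.0 and 0.95. The summed level of 7 endothelial markers was 3324 to 3578 at metestrus and 2762 to 3309 at the other stages. Of the 7, 0 were called by the F test and 0 had an unadjusted p under 0.05. Pecam1, Tek, Vwf and Emcn had their highest mean at metestrus. Cd34 had its highest at proestrus (8.51), Kdr at estrus (5.69) and Cdh5 at diestrus (6.80). The part of endothelial cells in the B3gnt5 result was not tested.

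**Figure D2:**
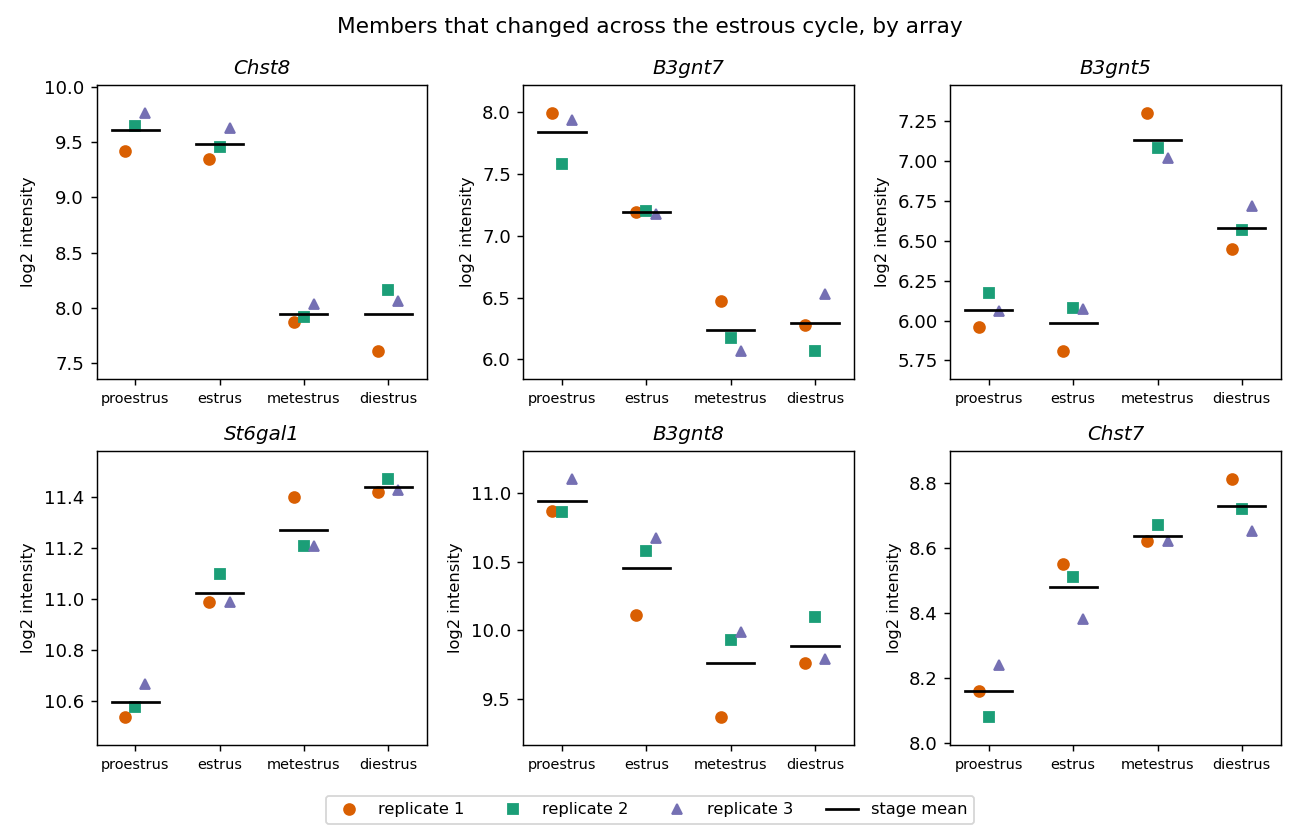
Log2 intensity of the 6 enzymes that changed across the cycle, with a symbol for each array by replicate number and a line at each stage mean. Each panel has its own vertical scale, since probes cannot be compared with each other. Chst8, B3gnt7 and B3gnt8 are lower at metestrus than at proestrus on every array, and B3gnt5 is highest at metestrus.

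The galactosyltransferases, some of which alternate with the B3gnt enzymes in building N-acetyllactosamine, did not pass the test. Of 4 tested B4galt and 3 tested B3galt genes, 0 were called by the F test, 0 with the block and 0 at an unadjusted p under 0.05. Stage means spanned 0.12 to 0.44 in the B4galt and 0.05 to 0.35 in the B3galt genes. B4galt7, which adds galactose to the linker of proteoglycans, had the lowest F p of its family. Its values were 6.43, 6.35 and 6.89 at proestrus, 6.49, 6.45 and 6.56 at estrus, 6.28, 6.28 and 6.63 at metestrus, and 6.30, 6.45 and 6.38 at diestrus, and all stages overlapped. Proestrus minus diestrus was 0.18 ± 0.16 (limma adjusted p = 0.64), and on the deposited values the sign turned. B3galt4, which adds galactose to gangliosides, gave 7.38, 7.69 and 7.88 at proestrus, 7.13, 7.65 and 7.66 at estrus, 6.81, 7.53 and 7.57 at metestrus, and 7.28, 7.29 and 7.40 at diestrus. Metestrus minus proestrus was -0.35 ± 0.22 (limma adjusted p = 0.47). A second B3galt4 probe, detected on 10 arrays, gave 0.04 ± 0.35.

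Among the capping enzymes, none of the 5 tested fucosyltransferases was called by the F test, with or without the block, and 0 had an unadjusted p under 0.05. Their stage means spanned 0.15 to 0.32. Fut4, which builds Lewis-type antigens, had the lowest F p of the family. It gave 6.37, 6.16 and 6.18 at proestrus, 6.65, 6.42 and 6.19 at estrus, 6.60, 6.32 and 6.50 at metestrus, and 6.36, 6.02 and 6.34 at diestrus. Metestrus minus proestrus was 0.23 ± 0.15 (limma adjusted p = 0.49), and these groups overlapped.

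Of 8 tested genes of fucose metabolism, 1 changed. The list covers making and moving the donor, and also Pofut1 and Pofut2, which use it, and Fuca1, which removes fucose. Gmds catalyses the first step from GDP-mannose towards GDP-fucose. Its values were 10.90, 10.86 and 11.23 at proestrus, 10.43, 10.64 and 10.52 at estrus, 10.01, 10.16 and 10.13 at metestrus, and 9.93, 10.11 and 9.94 at diestrus. The proestrus arrays were the highest and the estrus arrays the next highest, with metestrus and diestrus overlapping below. Proestrus was 2.01-fold above diestrus (1.01 ± 0.13, limma adjusted p = 0.0011), and metestrus was 1.87-fold below proestrus (limma adjusted p = 0.0019). With the replicate block 2 of the 8 genes of the list were called, Gmds and Pofut1 (F test, limma adjusted p = 0.031), the latter named after its values were seen.

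St6gal1 was the 1 sialyltransferase past the F test. It caps N-glycans of membrane and secreted proteins with sialic acid. Its values were 10.54, 10.58 and 10.67 at proestrus, 10.99, 11.10 and 10.99 at estrus, 11.40, 11.21 and 11.21 at metestrus, and 11.42, 11.47 and 11.43 at diestrus. None of the 4 stages overlapped with another, and the order from low to high was proestrus, estrus, metestrus and diestrus. Diestrus was 1.80-fold above proestrus (proestrus minus diestrus -0.85 ± 0.11, limma adjusted p = 0.00094), and the difference within replicates 1, 2 and 3 was -0.88, -0.89 and -0.77. Metestrus was 1.60-fold above proestrus (0.67, limma adjusted p = 0.0037). Estrus minus proestrus was 0.43 ± 0.11 with a limma adjusted p of 0.12, and 0.037 with the replicate block. Estrus minus diestrus was -0.41 with a limma adjusted p of 0.087, and 0.025 with the block.

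Of the 12 other tested sialyltransferases, 0 were called by limma's F test and 1 had an unadjusted p under 0.05. With the replicate block, 2 were called, both St3gal genes. St3gal5, which makes the simplest ganglioside, gave 8.33, 8.64 and 8.67 at proestrus, 8.83, 8.73 and 8.69 at estrus, 7.90, 8.5 and 8.47 at metestrus, and 7.86, 8.31 and 8.27 at diestrus. The estrus arrays lay above those of metestrus and diestrus, and the replicate 1 arrays of the latter were the lowest. Estrus minus diestrus was 0.60 ± 0.19 (limma adjusted p = 0.17, and 0.022 with the block) and was 0.97, 0.42 and 0.42 within replicates 1, 2 and 3. A second St3gal5 probe, detected on all 12 arrays, gave 0.17 ± 0.18, with replicate 3 at 6.35 at estrus and 6.37 at diestrus. St3gal6, which sialylates the ends of N-acetyllactosamine chains and was named after its values were seen, gave 10.10, 9.66 and 9.82 at proestrus and 10.53, 10.25 and 10.12 at metestrus. Metestrus minus proestrus was 0.44 ± 0.16 (limma adjusted p = 0.16, and 0.0095 with the block), and the F test gave 0.39 and 0.024.

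St6galnac4, which adds sialic acid to O-glycans already sialylated, did not pass in either fit. Its values were 6.02, 6.25 and 6.70 at proestrus, 5.56, 5.97 and 6.31 at estrus, 6.44, 6.52 and 6.38 at metestrus, and 5.87, 5.92 and 5.97 at diestrus. The metestrus arrays lay above the diestrus arrays, with diestrus minus metestrus at -0.53 ± 0.20 (limma adjusted p = 1, and 0.31 with the block). On its other kept probes, detected on 7 and 5 arrays, the difference was -0.15 and -0.01. St8sia4, which makes polysialic acid, gave 8.30, 7.95 and 8.01 at proestrus, 8.32, 7.78 and 7.84 at estrus, 8.41, 7.92 and 8.06 at metestrus, and 8.31, 7.78 and 8.01 at diestrus. Replicate 1 was the highest array of each stage and the stages overlapped, with metestrus minus estrus at 0.15 ± 0.20 (limma adjusted p = 0.87). Of 8 tested genes for making or removing sialic acid, 0 were called by the F test, 1 had an unadjusted p under 0.05, and 1 was called with the block.

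Chst8 had the largest distance between stage means of the 50 tested enzymes. It adds sulfate to N-acetylgalactosamine at the ends of glycans and is known from the pituitary, where it acts on luteinizing hormone. Its log2 intensities were 9.42, 9.65 and 9.76 at proestrus, 9.35, 9.46 and 9.63 at estrus, 7.87, 7.92 and 8.03 at metestrus, and 7.61, 8.16 and 8.06 at diestrus. All 6 arrays of proestrus and estrus lay above all 6 of metestrus and diestrus, with no overlap between these groups of stages and with overlap inside each. The raw intensities were 1115, 689.6 and 705 at proestrus and 404.9, 241.2 and 250.3 at metestrus. Metestrus was 3.18-fold lower than proestrus (-1.67 ± 0.16, limma adjusted p = 0.00012) and 2.91-fold lower than estrus (-1.54 ± 0.16, limma adjusted p = 0.00024). Proestrus was 3.18-fold above diestrus (limma adjusted p = 0.00015) and estrus 2.91-fold above diestrus (limma adjusted p = 0.00029). Estrus minus proestrus was -0.13 ± 0.16 (limma adjusted p = 1). Within replicates 1, 2 and 3 metestrus minus proestrus was -1.55, -1.73 and -1.72.

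The summed level of the ovarian markers given above was, like Chst8, B3gnt7 and B3gnt8, higher at proestrus than at metestrus. Of the 8 ovarian markers, 4 were called lower at metestrus and 0 were called higher. Cyp11a1 (0.47) and Star (0.58) had higher means at metestrus than at proestrus, uncalled. The ovarian sum also rose from proestrus to estrus, with 4 of 8 markers called higher and a median log2 difference of 1.01. The same difference was -0.13 in Chst8, -0.64 in B3gnt7 and -0.49 in B3gnt8. Among the ovarian markers, Inhba (-0.18), Cyp17a1 (-0.21) and Foxl2 (-0.29) did not rise either. Inhba and Cyp17a1 were lower at metestrus than at estrus (-2.1 and -1.39, limma adjusted p = 0.00024 and 0.016), as Chst8 was (-1.54). Foxl2 was not (0.12, limma adjusted p = 0.83). The part of ovarian cell types in the levels of these enzymes was not tested.

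Chst7, which sulfates chondroitin chains, changed the least of those that passed. Its values were 8.16, 8.08 and 8.24 at proestrus, 8.55, 8.51 and 8.38 at estrus, 8.62, 8.67 and 8.62 at metestrus, and 8.81, 8.72 and 8.65 at diestrus. The proestrus arrays lay below all others. Diestrus was 1.48-fold above proestrus (proestrus minus diestrus -0.57 ± 0.11, limma adjusted p = 0.011) and metestrus 1.39-fold above it (0.48, limma adjusted p = 0.025). The adjusted p of the F test was 0.029, and it exceeded 0.05 when any 1 array was left out other than estrus replicate 1 or metestrus replicate 1, with a highest value of 0.15 without proestrus replicate 2.

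Some marker levels were also lowest at proestrus, as those of St6gal1 and Chst7 were. The summed level of 3 tested adipocyte markers was 874 to 909 at proestrus, 1492 to 1545 at estrus, 942 to 1356 at metestrus and 1147 to 1402 at diestrus, and 3 further adipocyte markers, Plin1, Fabp4 and Retn, were not detected on any array. Of the 3 tested, 1 was lower at proestrus than at diestrus, Adipoq (proestrus minus diestrus -0.71, limma adjusted p = 0.03). Cidec also had its lowest mean at proestrus (6.56), but Lep had its lowest at diestrus (7.31, against 7.42 at proestrus). Adipoq and the adipocyte sum were highest at estrus, where St6gal1 and Chst7 were below their metestrus and diestrus means. Sox17, given above, was likewise lowest at proestrus. Of the other tested secretory markers, Ovgp1, Pax8, Krt18 and Msln also had their lowest mean there, uncalled, while Krt8 and Cdh1 did not. The part of these cells in the levels of St6gal1 and Chst7 was not tested.

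Of the 9 other tested Chst genes, 0 were called by the F test and 1 had an unadjusted p under 0.05, while 2 were called with the block. Chst10, which sulfates a glucuronic acid epitope of neural glycoproteins, gave 6.76, 6.56 and 6.54 at proestrus, 6.84, 6.72 and 6.57 at estrus, 7.77, 6.83 and 7.23 at metestrus, and 7.47, 6.88 and 7.17 at diestrus. The metestrus arrays lay above the proestrus arrays but ranged widely, with a difference of 0.66 ± 0.22 (limma adjusted p = 0.13, and 0.012 with the block). In the replicate 2 and 3 arrays alone its adjusted p was 0.11. With the block metestrus against estrus (0.56, limma adjusted p = 0.037) and proestrus against diestrus (-0.55, limma adjusted p = 0.025) passed as well. Chst1, which sulfates keratan chains and was named after its values were seen, gave 8.03, 8.49 and 8.60 at proestrus, 8.59, 9.28 and 9.40 at estrus, 8.31, 8.92 and 8.81 at metestrus, and 8.48, 9.11 and 8.95 at diestrus. Replicate 1 was the lowest array of every stage, and estrus exceeded proestrus by 0.56, 0.79 and 0.80 within the replicates. The limma adjusted p of that difference was 0.46, and it was 0.0023 with the block and 0.014 in the replicate 2 and 3 arrays alone. Of 5 tested genes of sulfate metabolism, Papss1, Slc35b3, Bpnt1, Bpnt2 and Sumf2, 0 were called by the F test. With the block 0 were called, and 0 had an unadjusted p under 0.05.

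**Figure D3:**
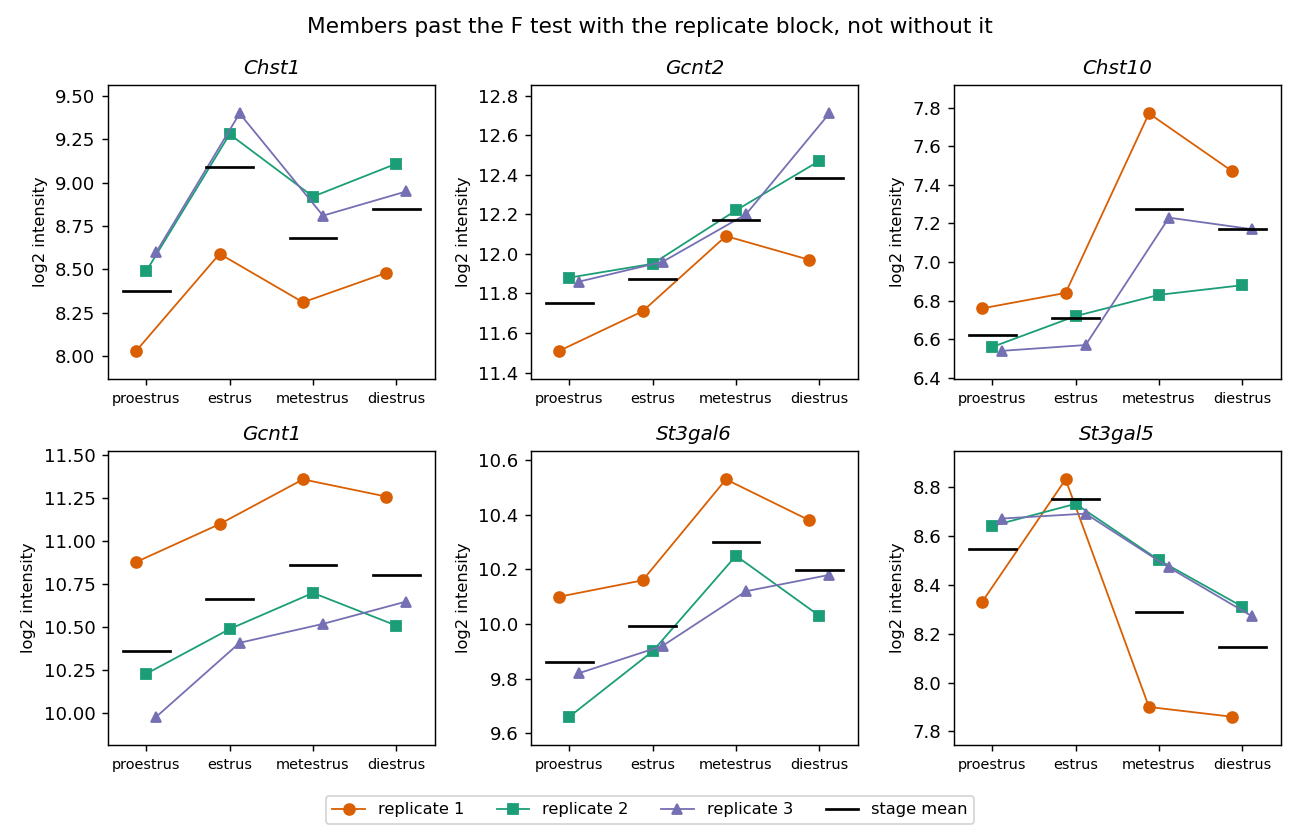
Log2 intensity of the 6 enzymes past limma's F test with the replicate number as a block but not without it, with a line joining the arrays of each replicate number and a bar at each stage mean. In Gcnt1 the replicate 1 line lies above the other lines at every stage and in Chst1 below them.

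Stage by stage, all calls without a block lay between proestrus or estrus on one side and metestrus or diestrus on the other. From proestrus to estrus 0 of the 50 enzymes passed limma's test, with 5 at an unadjusted p under 0.05, where 1.02% of all genes passed. With the replicate block 3 passed against 3.06%, namely Chst1, St6gal1 and B3gnt7. From estrus to metestrus 3 passed against 2.46% of all genes, with B3gnt5 higher (0.690% of all genes were higher) and Chst8 and B3gnt7 lower (1.77% lower), and with the block 6 passed against 8.35%. From metestrus to diestrus 0 passed, with 2 at an unadjusted p under 0.05, where 0.0690% of all genes passed, and with the block 0 passed against 0.296%. Between proestrus and diestrus 6 passed against 4.86%, of which 3 were higher at proestrus (2.21% of all genes) and 3 lower (2.65%), and with the block 13 passed against 16.3%. St3gal1 (0.65, limma adjusted p = 0.13, and 0.022 with the block) and St6galnac2 (-0.33, limma adjusted p = 0.34, and 0.029 with the block), named after their values were seen, were among those 13. A second St3gal1 probe, detected on 7 arrays, gave 0.32 ± 0.15 without the block. Between estrus and diestrus 3 passed against 2.22%, of which 2 were higher at estrus (1.65% of all genes) and 1 lower (0.572%). With the block 7 passed against 6.90%. Between metestrus and proestrus 6 passed against 5.33%, of which 3 were higher at metestrus (2.91% of all genes) and 3 lower (2.43%), and with the block 10 passed against 16.5%. The estrus and diestrus count fell to 1 without estrus replicate 2, estrus replicate 3 or diestrus replicate 2, and reached 5 without metestrus replicate 1.

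**Figure D4:**
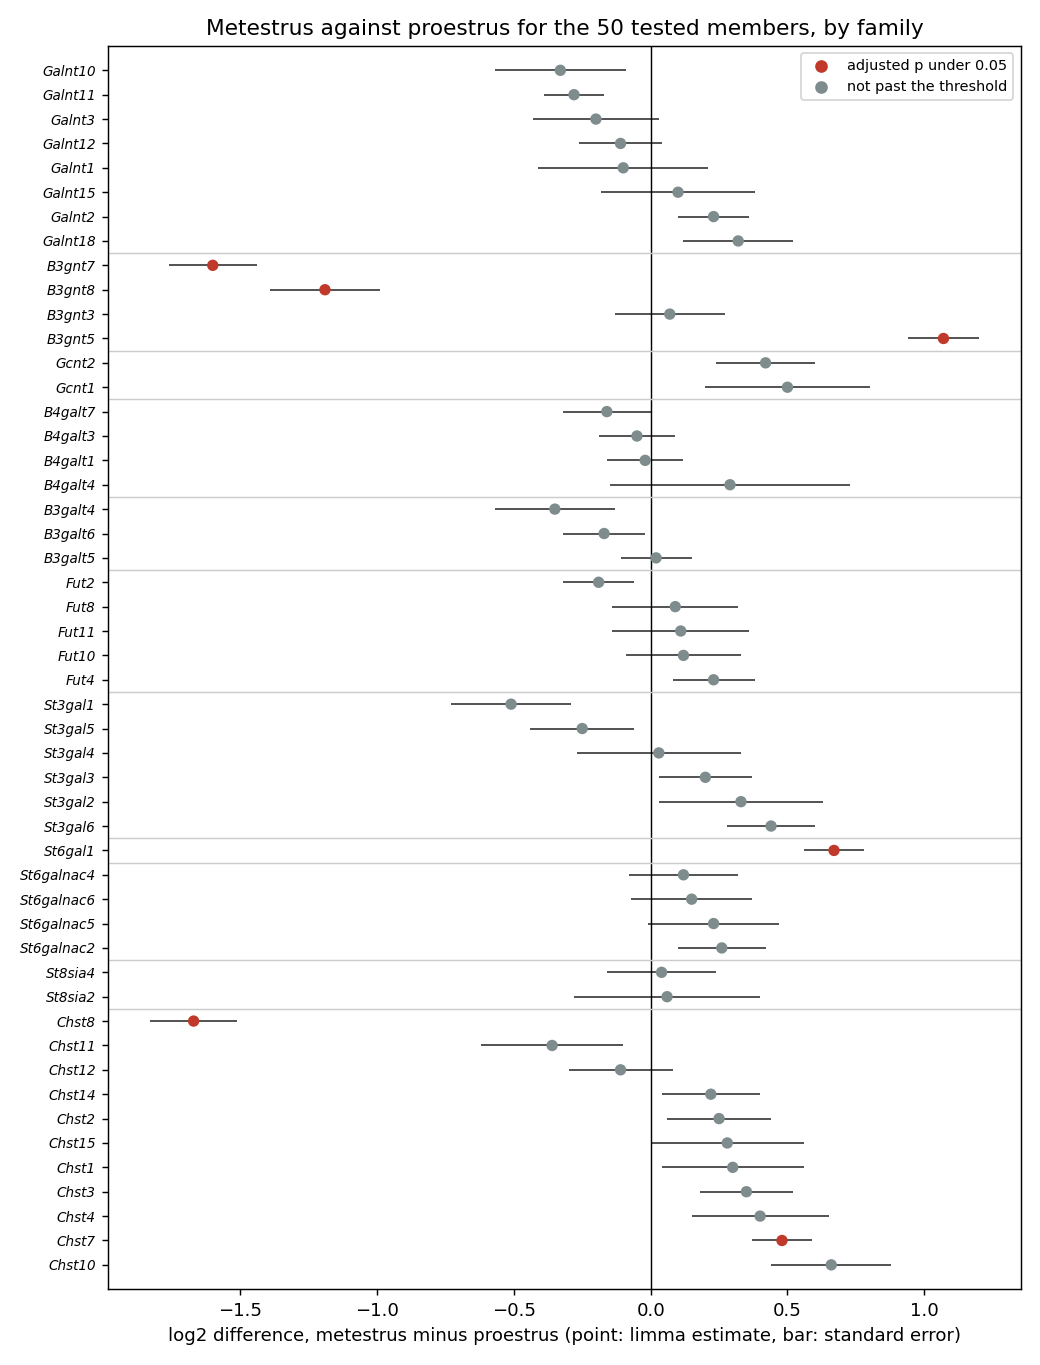
Difference in log2 intensity between metestrus and proestrus for each of the 50 tested enzymes, with limma's estimate as the point and its standard error as the bar, by family. The 6 enzymes past the threshold are Chst8, B3gnt7 and B3gnt8 on the lower side, at -1.67, -1.60 and -1.19, and B3gnt5, St6gal1 and Chst7 on the higher side, at 1.07, 0.67 and 0.48.

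Of 9 tested secreted or membrane mucin-type proteins, 2 were called by the F test, and 4 with the block, and those 2 had opposite orders of stages. Glycam1, a secreted mucin-like protein known from lymph node vessels and milk, gave 5.48, 5.72 and 5.83 at proestrus, 5.37, 6.06 and 6.29 at estrus, 4.45, 4.88 and 4.49 at metestrus, and 4.72, 5.11 and 4.87 at diestrus. The arrays of proestrus and estrus lay above those of metestrus and diestrus. Metestrus was 2.46-fold below estrus (-1.30 ± 0.22, limma adjusted p = 0.0079), and its probe was not detected on all 12 arrays. Podxl, a heavily sialylated membrane protein of podocytes and vessels, gave 8.11, 8.20 and 8.07 at proestrus, 8.22, 8.16 and 8.21 at estrus, 8.60, 8.63 and 8.71 at metestrus, and 8.61, 8.53 and 8.86 at diestrus. Metestrus was 1.44-fold above proestrus (0.52 ± 0.12, limma adjusted p = 0.024) with no overlap. Ovgp1 itself had stage means of 15.06, 15.14, 15.18 and 15.18 from proestrus to diestrus (F test, limma adjusted p = 1), on arrays where replicate 1 was the brightest of each stage. Its values, up to 15.78, lay near the top of the scale, where Acta2 read 15.78 or 15.84 on every array. Saturation was not tested, so a change in Ovgp1 may not show there.

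Of 11 tested N-glycan processing genes and 12 tested genes for making and moving UDP-sugars, 0 were called by the F test, 0 had an unadjusted p under 0.05, and 1 of each list was called with the block. Across the 7 pathway lists 3 of 59 tested genes were called, Gmds, Glycam1 and Podxl, and 10 with the block, beside 5.37% and 16.4% of all genes tested. The progesterone receptor gene Pgr had stage means of 8.58, 7.80, 7.77 and 7.35 (F test, limma adjusted p = 0.0017) and was 2.35-fold higher at proestrus than at diestrus. The estrogen receptor gene Esr1 had stage means of 11.11, 11.17, 11.30 and 11.24 (F test, limma adjusted p = 1).

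The sequences just upstream of Chst8, B3gnt7 and B3gnt8, which were lower at metestrus than at proestrus, and of B3gnt5, which was higher, are shown because these enzymes carry the largest changes. Each is the 250 bases before the RefSeq transcription start in build GRCm38.p6, printed from 5′ to 3′ on the gene's strand, with matches to GGGCGG, the GC box, on either strand in capitals.
Chst8, chr7:34812712-34812961, minus strand: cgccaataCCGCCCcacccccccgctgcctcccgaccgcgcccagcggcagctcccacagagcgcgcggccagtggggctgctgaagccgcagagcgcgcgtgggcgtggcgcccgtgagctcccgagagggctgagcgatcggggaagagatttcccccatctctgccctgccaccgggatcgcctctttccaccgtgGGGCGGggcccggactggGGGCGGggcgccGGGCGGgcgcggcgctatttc
B3gnt7, chr1:86302971-86303220, plus strand: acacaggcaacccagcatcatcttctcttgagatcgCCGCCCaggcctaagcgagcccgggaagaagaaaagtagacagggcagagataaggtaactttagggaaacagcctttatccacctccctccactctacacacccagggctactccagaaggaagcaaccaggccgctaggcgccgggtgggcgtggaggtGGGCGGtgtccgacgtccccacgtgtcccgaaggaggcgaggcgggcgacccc
B3gnt8, chr7:25627374-25627623, plus strand: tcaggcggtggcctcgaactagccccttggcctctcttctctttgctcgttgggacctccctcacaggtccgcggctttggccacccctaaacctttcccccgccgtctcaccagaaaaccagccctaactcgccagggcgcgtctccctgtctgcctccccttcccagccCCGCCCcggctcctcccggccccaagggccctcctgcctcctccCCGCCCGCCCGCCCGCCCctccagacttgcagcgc
B3gnt5, chr16:19759984-19760233, plus strand: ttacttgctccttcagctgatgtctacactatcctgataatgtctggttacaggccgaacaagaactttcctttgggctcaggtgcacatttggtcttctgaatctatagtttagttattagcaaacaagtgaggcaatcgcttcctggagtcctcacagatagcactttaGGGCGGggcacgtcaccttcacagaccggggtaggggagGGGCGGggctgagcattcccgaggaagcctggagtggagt
The GC box occurred 4 times upstream of Chst8, 2 times upstream of B3gnt7, 5 times upstream of B3gnt8, where 4 matches overlap, and 2 times upstream of B3gnt5. It is common, since 32.7% of 32851 such windows of mouse genes hold at least 1. The share of G and C was 75.6%, 61.6%, 70.0% and 51.2%, against a median of 52.4% over all windows. The palindromic estrogen response element, held by 0.0639% of windows, its part written AGGTCA, held by 14.0%, the progesterone and glucocorticoid response element, held by 0.387%, and the AP-1 site TGANTCA, held by 6.75%, had no match in these 4 windows on either strand. Of the 3 windows of St6gal1 and the 1 of Chst7, 1 St6gal1 window held AGGTCA and TGANTCA and the Chst7 window held 1 GC box. A match is a run of letters and not a measured binding site, and a window without one says only that the letters are absent from it.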

How the data were processed

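Total RNA of mouse oviducts was labelled with biotin using an Ambion kit and measured on bead arrays, per the labels' protocols. The authors deposited raw probe intensity with a detection p-value per probe and array, per the file headers, and a value table of intensity on a normalised linear scale. No source used here names the normalisation software. Of 25697 probes, 23978 had 1 gene symbol in the platform annotation and 1719 had none. Raw intensities were corrected and quantile-normalised with neqc of limma 3.58.1 in R 4.3.3, using the detection p-values and an offset of 16, so fold changes of dim probes are understated. Probes with a detection p under 0.01 on at least 3 of 12 arrays were kept (14778), and each gene was represented by its brightest kept probe (10144 genes). A limma model with 4 stages gave a moderated F test and 6 pairwise contrasts, adjusted by Benjamini-Hochberg over all genes at 0.05. Levels are never compared between probes, and depth has no meaning for arrays, so the number of arrays limits the precision.

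The labels number the replicates from 1 to 3 in each stage. Deviations from the stage means over 10144 genes correlated between stages at 0.62 to 0.81 for replicate 1. For replicate 2 this was 0.26 to 0.51 and for replicate 3 it was 0.36 to 0.55, so same-numbered arrays deviated together. Between replicates 2 and 3 the correlation was 0.22 to 0.54, and between replicate 1 and the others -0.69 to -0.28. These values set replicate 1 apart, but they do not separate numbers 2 and 3. The values between replicate 1 and the others are pushed down by subtracting a mean of 3 arrays. The grouping comes from these data and the brightness of the arrays, and no label states it. Fits with the replicate number or the brightness set as a block, and fits of replicates 2 and 3 alone, are therefore given beside results that they change. No 2 arrays held identical values.

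Named with values were all enzymes past the threshold, the 10 of lowest F p, the lowest F p of each of the 11 families, called genes of the pathway lists (at most 4 a list), and Ovgp1, Pgr and Esr1. The enzymes, pathway lists and marker lists were chosen with earlier results of these data known. Of the other marker lists, 0 of 6 smooth muscle, 2 of 8 neutrophil, 0 of 3 lymphocyte, 7 of 8 oocyte, 7 of 8 ovarian, 2 of 3 adipocyte and 0 of 2 erythrocyte markers were called by the F test; at an unadjusted p under 0.05 these were 2, 6, 0, 8, 7, 2 and 1. Alternatives covered the normalisation, offset, filter, probe choice, block, array set, variance model and leaving out each array. Promoter sequences are from RefSeq, and all 6 called genes matched by symbol. The procedure was also run on simulated data with errors independent between arrays and no block. Deviations shared between same-numbered arrays were not simulated.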

Additional observations from a re-analysis of the deposited data

How the results depend on the processing

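The number of enzymes past the F test was 6 and stayed within 5 to 6 when any 1 array was left out. The counts for the pairs of stages stayed within 0 to 0 (estrus minus proestrus), 3 to 3 (metestrus minus estrus), 0 to 0 (diestrus minus metestrus), 4 to 6 (proestrus minus diestrus), 1 to 5 (estrus minus diestrus) and 5 to 6 (metestrus minus proestrus), and the pathway count within 2 to 3. In the order of the F test, then estrus minus proestrus, metestrus minus estrus, proestrus minus diestrus, estrus minus diestrus, metestrus minus proestrus and the pathway lists, the counts were 6, 0, 3, 6, 3, 6 and 3 without a block. They were 12, 3, 6, 13, 7, 10 and 10 with the replicate block, and 12, 3, 7, 12, 7, 11 and 11 with the array set as a block. On the deposited values, floored at 16, they were 1, 0, 0, 0, 0, 0 and 0, and with the replicate block added they were 12, 2, 5, 11, 7, 13 and 8. In replicates 2 and 3 alone estrus minus proestrus gave 1, proestrus minus diestrus 12, estrus minus diestrus 7 and the pathway lists 5. With the replicate block in these 8 arrays the first 3 of these were 1, 11 and 5. Deposited values in these 8 arrays gave 1 for estrus minus proestrus, 5 for estrus minus diestrus and 5 for the pathway lists. Quantile normalisation without background correction gave 1 for estrus minus proestrus. The count between diestrus and metestrus was 0 in every setting run. The fits with the replicate block within replicates 2 and 3, and the deposited values with a block or in replicates 2 and 3, were chosen after seeing the data. The only named difference to turn its sign was B4galt7 between proestrus and diestrus, at -0.10 on the deposited values, with or without the block, and -0.24 there in replicates 2 and 3. Among the enzymes, beside the calls given with the results, the replicate block changed only comparisons of Chst1, Gcnt1 and St3gal6, which gained calls, and it ended none. The cause of the shifts was not tested. Signal over background limits what can be said of the 24 enzymes that were not tested, and of dim probes such as those of Glycam1 and B3gnt5.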
